A study of Homo sapiens and Mus musculus with 16 samples.

Results

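The 39 collagen genes described here encode the chains of fibrillar, network-forming, beaded filament, anchoring fibril, fibril-associated, transmembrane and multiplexin collagens, with COL26A1 and COL28A1 beside them. They were chosen by name. Every accessible region that touched a member's gene body or the 20 kb on either side of it was taken as a collagen region, and each region was counted once where windows overlapped. This gave 347 of 118107 regions in HPAF-II control, 279 of 97047 in HPAF-II HNF4G-KO, 208 of 68074 in the KPC primary tumor and 266 of 80843 in KPC mets. All 39 members were found in the human annotation and all 39 orthologs in the mouse annotation.

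Open chromatin was mapped by ATAC-seq, where a transposase cuts and tags exposed DNA, in 16 samples that formed 4 groups of 4 replicates. HPAF-II is an established human pancreatic adenocarcinoma cell line. Its control group carried Cas9 and is labelled wild type, and its other group carried a CRISPR knockout of HNF4G, a nuclear receptor gene. The study's methods describe the knockout as a pool of single-cell clones, so the pool carries the history of few founder cells. The KPC groups were untreated mouse pancreatic cancer cell lines, labelled wild type, from a primary tumor and from liver metastases (mets) of the KPC model of pancreatic cancer. Each was grown as a cell line, without stroma from a host.

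Collagens are triple-helical proteins of the extracellular matrix. Fibrillar collagens such as types I and III give tissue its tensile strength and are made mainly by fibroblasts and stellate cells, which fill the stroma of pancreatic tumors. Type IV collagens form the sheet of the basement membrane under epithelia, where types XV and XVIII also lie, while type VII anchors that membrane to the matrix below and type XVII spans the epithelial cell membrane in hemidesmosomes. The type IV genes sit in facing pairs whose transcripts start from a common stretch and run in opposite directions.

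Each group was represented by 1 region list. No value was held per replicate, the read depth is unknown, and no difference below has a replicate check or a p-value. A region counted as shared where at least 1 bp of it overlapped the other list of its pair, and otherwise as control-only, KO-only, tumor-only or mets-only. The scale of the authors' score is not given in the sources used here, so each score was read as its percentile within its own list, where 100 is the strongest region. Wilson 95% intervals cover counting error only. A promoter region lay within 1 kb of any annotated start site of the gene. Among cell type markers, 7 of 7 epithelial genes had a promoter region in both HPAF-II lists, against 6 of 7 in the primary tumor and 5 of 7 in mets, where Esrp1 and Cldn4 had none. Fibroblast and stellate markers had a promoter region at 5 of 8 genes in both HPAF-II lists and at 2 of 8 in both KPC lists, with Lum, Dcn and Thy1 without one in all 4 lists. Of the hepatocyte markers, 2 of 4 had one in both HPAF-II lists (TTR and SERPINA1), 1 of 3 in the primary tumor (Ttr) and 0 of 3 in mets, and ALB and APOA1 had none in any list.

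The listed regions near the starts of COL4A3 and COL4A4 differed within both pairs of lists. These genes are a facing pair that encodes basement membrane chains of the kidney glomerulus and other specialised epithelia. Their nearest start sites lie 171 bp apart in human and 72 bp apart in mouse. The printed stretches are the part of the human control-only region beyond the inner COL4A4 start, at chr2:227164206-227164296 in hg38, and the bases between the mouse starts, at chr1:82586850-82586920 in mm10, both on the plus strand. Neither stretch overlaps an annotated exon. Capitals mark the longest run of bases common to both.
Human COL4A3/COL4A4: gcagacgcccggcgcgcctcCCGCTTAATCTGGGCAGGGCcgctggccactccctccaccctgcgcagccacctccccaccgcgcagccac
Mouse Col4a3/Col4a4: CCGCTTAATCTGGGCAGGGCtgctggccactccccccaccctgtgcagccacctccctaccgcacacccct

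The common run was 20 bases long, and 63 of the 71 bases that could be lined up without gaps were identical (88.7%). The human stretch lay in a control-only region and the mouse stretch in a mets-only region. In HPAF-II control, 3 weak regions lay within 1 kb of the facing starts. They were at chr2:227163526-227163725 (percentile 12.8), chr2:227163968-227164296 (4.70) and chr2:227165141-227165358 (8.97). The HNF4G-KO list held none of them, and its nearest region to the human stretch was 34071 bp away. In the KPC lists the start lay in 1 mets-only region, chr1:82586745-82587012, which was among the weakest of its list (percentile 0.852). The nearest primary tumor region was 49839 bp away. The mouse region covered the starts of both gene records. The human regions covered an inner COL4A4 start and lay on either side of the starts of both gene records, which were in no region.

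The difference reached beyond the start. In the COL4A3 window (ENSG00000169031.21, chromosome 2, 227164624 to 227314792), 10 of 12 control regions were control-only (83.3%). Of the 12200 protein-coding genes with at least 5 control regions, 20 had a control-only share as high (0.164%), and the median share was 20%. The 12 control regions were mostly weak, with a median percentile of 16.3. The control list was the longer of the pair, and this rank was not recomputed in lists of equal length. In the same window the HNF4G-KO list held 3 regions. One was intronic, at percentile 21.2 in control and 0.786 in HNF4G-KO, and the others lay downstream of the gene, where the strongest stood at percentile 95.1 in each list. COL4A4 had 7 control-only regions of 13, some of them the same regions, since both windows overlap. In KPC mets, 4 of 5 Col4a3 regions were mets-only, a share reached by 98 of 9672 ranked genes (1.01%). The strongest of these mets-only regions was intronic at percentile 54.1, and the median of all 5 regions was 18.5. The 4 Col4a4 regions shared by the KPC lists each ranked higher in mets, by 11.3 to 38.5 percentile points among shared regions.

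**Figure D1:**
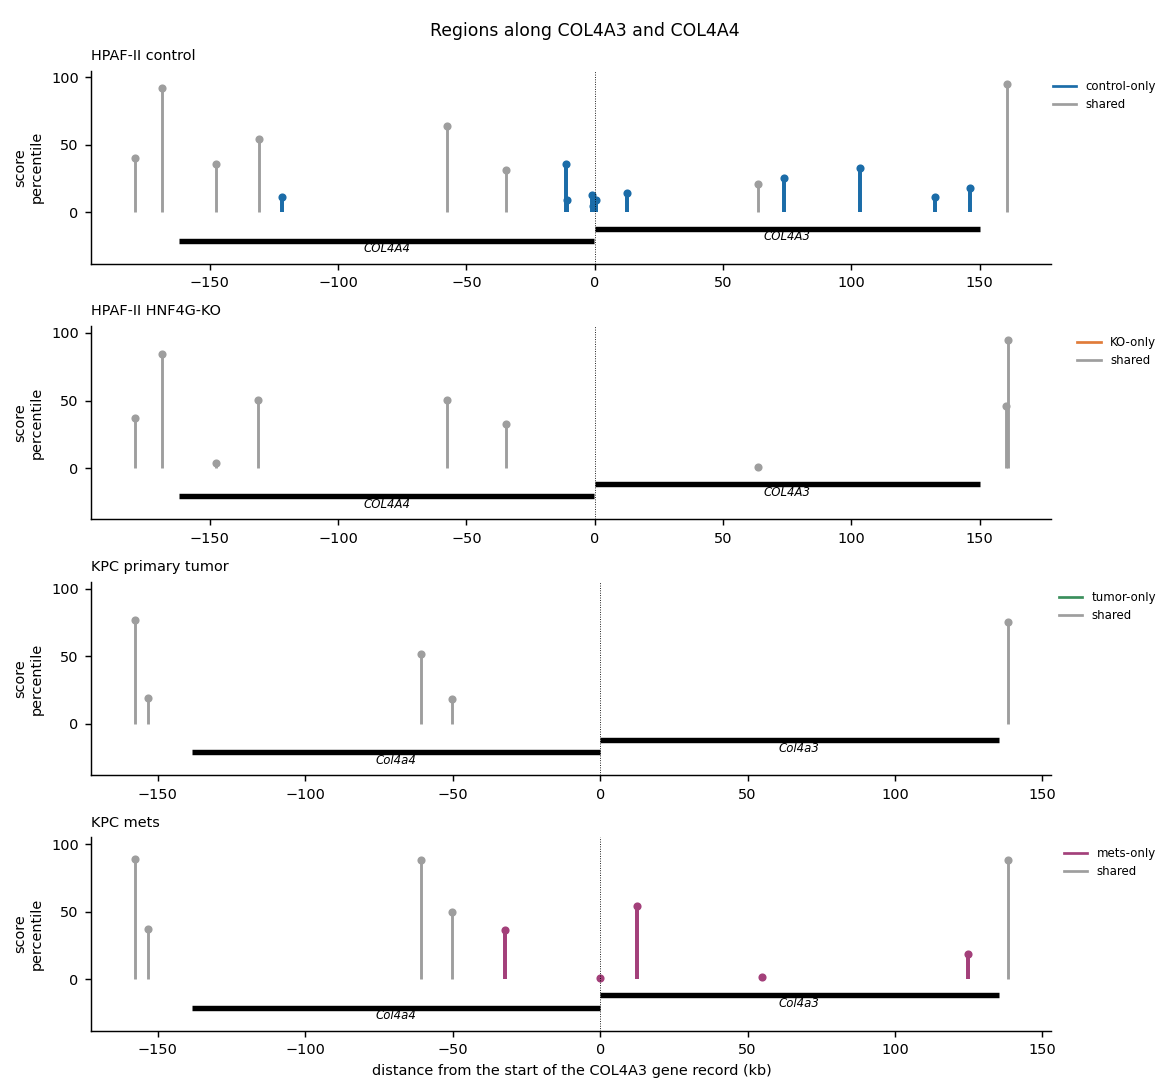
Regions along COL4A3 and COL4A4 in the 4 lists. The horizontal axis is the distance in kb from the start of the COL4A3 gene record, each line ends at a region's score percentile within its own list, black bars are the gene bodies, colours mark regions in one list and grey marks shared regions. The cluster of low lines near 0 kb in HPAF-II control is missing in HNF4G-KO, and a region at percentile 0.852 stands at 0 kb in KPC mets alone.

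Of the other facing type IV pairs, COL4A1 and COL4A2, which encode the chains found in nearly all basement membranes, start 101 bp apart on human chromosome 13. The bases between their starts, at chr13:110307158-110307257 in hg38 on the plus strand, are shown because this CpG-rich stretch lay in neither HPAF-II list. Capitals mark CG dinucleotides.
Human COL4A1/COL4A2: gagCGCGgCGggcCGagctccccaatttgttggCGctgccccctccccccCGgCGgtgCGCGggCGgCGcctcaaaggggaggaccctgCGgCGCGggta

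This stretch held 14 CG dinucleotides at a GC content of 78%. The nearest region was 5436 bp away in control and 5373 bp away in HNF4G-KO. COL4A2 was still counted as having a promoter region in both HPAF-II lists, since a strong shared region (percentile 92.7 in control and 91.9 in HNF4G-KO) covered an internal start 201302 bp from the gene start. In mouse the facing start was open in both KPC lists, in a shared region at percentile 35.3 in the primary tumor and 19.7 in mets. COL4A5 and COL4A6, a facing pair outside the 39 genes, resembled COL4A3 and COL4A4 in HPAF-II, with a promoter region at percentile 5.44 for each in control and none in HNF4G-KO. In the KPC lists, Col4a5 had a promoter region at percentile 52.4 in the primary tumor and 65.2 in mets, and Col4a6 had none.

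Over all members, promoter regions were less frequent and weaker than over protein-coding genes in general. In HPAF-II control, 25 of 39 collagen genes had a promoter region (64.1%, Wilson 95% interval 48.4 to 77.3), against 74.8% of protein-coding genes. In HNF4G-KO there were 18 (46.2%, 31.6 to 61.4), against 72.8%. In the primary tumor there were 17 (43.6%, 29.3 to 59.0), against 58%, and in mets 19 (48.7%, 33.9 to 63.8), against 59.1%. The intervals include the background in mets and control and fall below it in HNF4G-KO. In the primary tumor the background lies just inside the interval. The median percentile of the strongest promoter region per collagen gene was 52.9 in control, 56.7 in HNF4G-KO, 51.5 in the primary tumor and 46.7 in mets, while the medians over all protein-coding genes with one were 85.0, 84.7, 74.3 and 76.9.

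Part of these counts came from internal starts. Collagen genes carry more annotated starts than other genes, with a median of 8 against 5 in human and 4 against 3 in mouse. With the start of the gene record alone, 19 members had a region in control (66.1% of protein-coding genes), 14 in HNF4G-KO (64.2%), 12 in the primary tumor (53.6%) and 14 in mets (54.3%).

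Of the 39 genes, 10 had a promoter region in all 4 lists. They were COL1A1, COL4A2, COL7A1, COL8A2, COL14A1, COL16A1, COL18A1, COL26A1, COL27A1 and COL28A1. Another 10 had none in any list, namely COL2A1, COL3A1, COL5A3, COL6A3, COL10A1, COL11A1, COL19A1, COL20A1, COL24A1 and COL25A1. COL11A1, a cartilage fibril chain, had no region of any kind in its window in either species. The promoters of COL1A2, COL9A2, COL9A3, COL13A1, COL17A1 and COL22A1 were open in both HPAF-II lists and in neither KPC list, and those of COL4A1, COL5A1, COL15A1 and COL23A1 in both KPC lists and in neither HPAF-II list. How often all protein-coding genes split in these ways across the species was not computed, so these counts have no background.

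**Figure D2:**
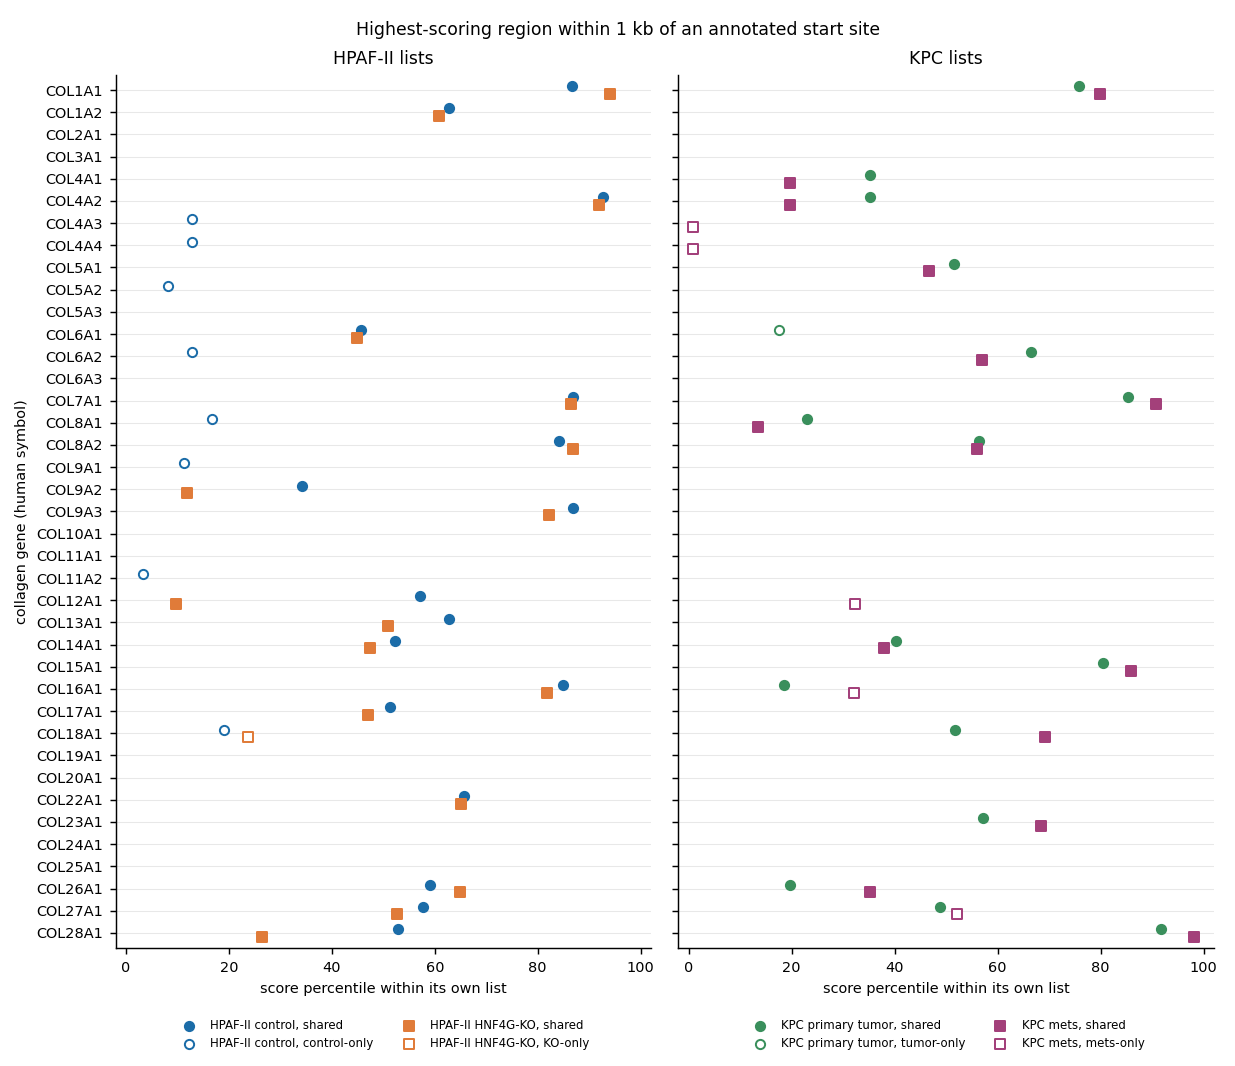
Score percentile, on the horizontal axis, of the strongest region within 1 kb of an annotated start site of each collagen gene, for the HPAF-II lists (left) and the KPC lists (right). Filled symbols are shared regions and open symbols are regions in one list. The open control symbols of COL4A3, COL4A4, COL5A2, COL6A2, COL8A1, COL9A1 and COL11A2 all stand at or below percentile 16.6.

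Within HPAF-II, 7 members had a promoter region in control and not in HNF4G-KO (17.9%, 8.98 to 32.7), against 2.69% of protein-coding genes. None had one in HNF4G-KO and not in control (0 of 39, 0 to 8.97), where the background was 0.634%. COL4A3 and COL4A4 share their 3 regions at the facing start and are not independent. The other members were COL5A2 (percentile 8.13), COL6A2 (12.8, near an internal start), COL8A1 (16.6), COL9A1 (2 internal-start regions at 5.44 and 11.3) and COL11A2 (3.24). All of these stood at or below percentile 16.6 of the control list. The HNF4G-KO list was the shorter of the pair, and a shorter list cannot be told apart from a change in the cells without reads per replicate. Trimming the control list by score to the length of the HNF4G-KO list takes away its lowest-ranked regions. The promoter regions of all 7 genes are among those, and the share of protein-coding genes after that trim was not computed. COL18A1, the endostatin precursor, had promoter regions in each list that did not overlap. Control held chr21:45404204-45404626 (7.28) and chr21:45506370-45506904 (19.1), and HNF4G-KO held chr21:45405430-45405726 (23.7).

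Within KPC, 3 members had a promoter region in mets and not in the primary tumor (7.69%, 2.65 to 20.3), against 2.19% of genes, and 1 had the opposite (2.56%, 0.454 to 13.2), against 1.06%. The first were Col4a3, Col4a4 and Col12a1, a fibril-associated collagen whose start lay in a mets-only region at percentile 32.4. The last was Col6a1, a chain of the beaded filaments around cells, with a tumor-only region at percentile 17.5. The intervals hold the background in the second case, and in the first case 2 of the 3 genes rest on the same region.

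Regions in one list made up 99 of 347 collagen regions in control (28.5%, 24.0 to 33.5), against 25% of the whole list. KO-only regions were 24 of 279 (8.60%, 5.85 to 12.5), against 6.76%. Tumor-only regions were 11 of 208 (5.29%, 2.98 to 9.22), against 8.51%, and mets-only regions 65 of 266 (24.4%, 19.7 to 29.9), against 20.2%. Each interval holds the share of its whole list. In the windows of all protein-coding genes the shares were 23.0% control-only, 6.46% KO-only, 8.33% tumor-only and 18% mets-only, of which the control-only and mets-only shares lie below the collagen intervals. With both lists of a pair trimmed to the same number of regions by score, the control-only and KO-only shares became 14.7% and 14.0%, and the tumor-only and mets-only shares 14.4% and 17.3%, so the shares within each pair lay closer together in lists of equal length. The shares of the whole lists after that trim were not computed. Regions in one list were weak in general. Their median percentile was 12.8 at collagen genes against 17.9 over the whole list in control, 12.4 against 11.5 in HNF4G-KO, 10.4 against 11.6 in the primary tumor and 18.5 against 19.4 in mets. At the collagen genes most were intronic (69 of 99, 18 of 24, 6 of 11 and 40 of 65), as were most shared regions. Intronic shares were 69.7%, 75%, 54.55% and 61.54%, beside 59.27%, 58.04%, 56.85% and 58.71% of the shared collagen regions of the same lists.

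**Figure D3:**
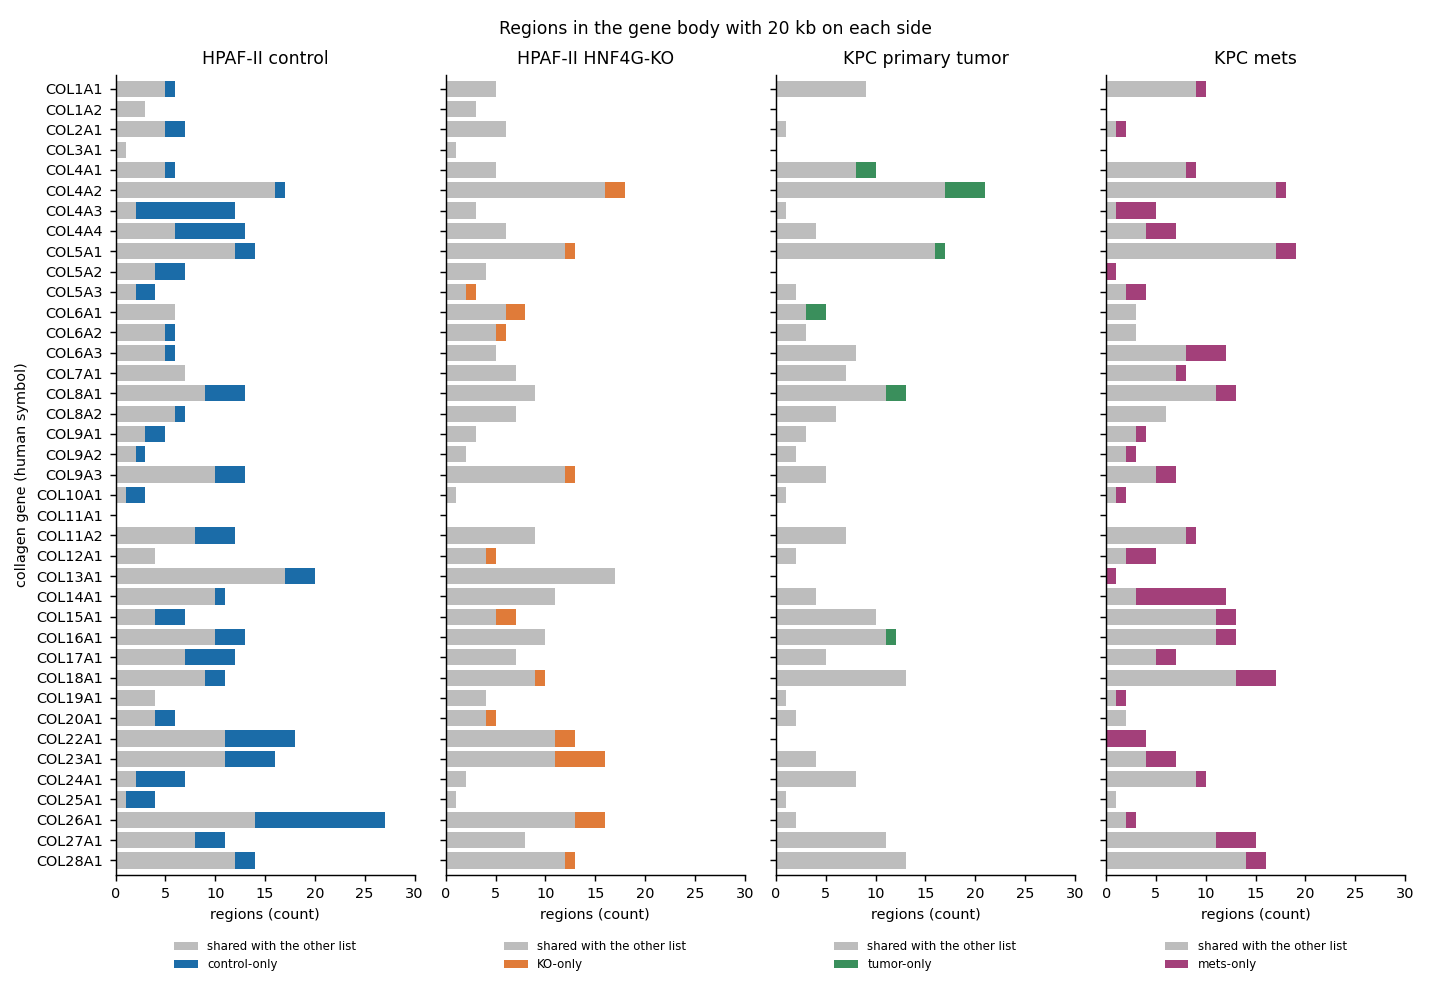
Number of regions in each collagen gene's window, with shared regions in grey and regions in one list in colour, in the 4 lists. COL4A3, COL24A1 and COL26A1 stand out in control, Col14a1 and Col22a1 in mets, and COL11A1 is empty throughout.

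Beside COL4A3, the members with the most control-only regions were COL26A1 with 13 of 27, COL4A4 with 7 of 13, COL22A1 with 7 of 18 and COL24A1 with 5 of 7, which ties in number with COL17A1 (5 of 12) and COL23A1 (5 of 16). COL26A1, a collagen of the reproductive tract, had the most regions of any member in control. All 13 of its control-only regions ranked at or below percentile 41.8, and 12 lay in introns. COL24A1, a minor fibrillar collagen, had a control-only share of 71.4%, which 60 of 12200 ranked genes reached (0.492%), but 3 of its 5 regions ranked below percentile 2. The strongest control-only region in any window, chr6:116111844-116112274 at percentile 59.5, lay downstream of COL10A1, a growth plate collagen, in an intron of NT5DC1, which holds COL10A1, and 992 bp from an NT5DC1 start. Its middle 300 bases, chr6:116111909-116112208 in hg38 on the plus strand, hold 2 matches to the FOXA sequence, in capitals.
COL10A1 window control-only region: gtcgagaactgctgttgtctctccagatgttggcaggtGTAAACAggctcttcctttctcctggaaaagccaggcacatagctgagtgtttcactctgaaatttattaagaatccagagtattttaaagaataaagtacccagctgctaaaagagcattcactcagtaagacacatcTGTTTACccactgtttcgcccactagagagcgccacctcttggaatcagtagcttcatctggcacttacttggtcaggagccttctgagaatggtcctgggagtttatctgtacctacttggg

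In HNF4G-KO the leading member was COL23A1, a transmembrane collagen, with 5 KO-only regions of 16, a share that 219 of 10707 ranked genes reached (2.05%). In the control list 5 of its 16 regions were control-only (31.2%), so the regions in one list were as many on either side. It was followed by COL26A1 with 3 of 16, and by COL15A1 with 2 of 7, COL6A1 with 2 of 8, COL22A1 with 2 of 13 and COL4A2 with 2 of 18, which tie in number. COL23A1 also held the strongest KO-only collagen region, at percentile 44.04 and in an intron 4647 bp from the gene start, a rank that 86 of 6556 KO-only regions reached (1.31%). Its sequence, chr5:178585482-178585746 in hg38 on the plus strand, is shown in full because it is a tandem repeat. Of its bases, 82.9% were identical to the base 31 positions on. In repeats of this kind reads can map to several copies, and the part of this in the result was not tested. No searched sequence occurred in it, so none is in capitals.
COL23A1 KO-only region: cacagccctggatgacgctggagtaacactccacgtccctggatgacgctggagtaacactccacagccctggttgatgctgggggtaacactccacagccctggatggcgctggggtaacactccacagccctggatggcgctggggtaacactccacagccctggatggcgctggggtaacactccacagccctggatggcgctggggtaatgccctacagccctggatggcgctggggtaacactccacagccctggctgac

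In the primary tumor few collagen regions were in one list. Col4a2 had 4 of 21, Col6a1 2 of 5, Col4a1 2 of 10, Col8a1 2 of 13 and Col16a1 1 of 12. One tumor-only region beside the facing start, at percentile 5.83, counted for both Col4a1 and Col4a2. The strongest was an intronic Col5a1 region at percentile 27.5, a rank reached by 998 of 5794 tumor-only regions (17.2%). The first 300 of its 301 bases, chr2:27907076-27907375 in mm10 on the plus strand, hold none of the searched sequences.
Col5a1 tumor-only region: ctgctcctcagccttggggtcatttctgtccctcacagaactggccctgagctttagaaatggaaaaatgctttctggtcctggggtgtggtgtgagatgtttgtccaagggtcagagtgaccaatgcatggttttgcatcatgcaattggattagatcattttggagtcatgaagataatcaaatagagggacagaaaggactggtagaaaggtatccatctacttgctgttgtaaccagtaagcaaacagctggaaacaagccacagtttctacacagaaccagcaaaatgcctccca

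The member with the most mets-only regions was Col14a1 (ENSMUSG00000022371.16, chromosome 15, 55307750 to 55520803), which encodes a fibril-associated collagen that binds type I fibrils. The mets list held 12 regions there, of which 9 were mets-only, a share reached by 110 of 9672 ranked genes (1.14%). All 9 lay in introns. The primary tumor list held 4 regions, 2 upstream of the gene (percentiles 61.0 and 40.2) and 2 near its far end (6.10 and 52.6). Between 872 bp upstream of the start and 205580 bp into the gene it listed nothing. The strongest mets-only region, 49654 bp into the gene, stood at percentile 91.5, a rank that 35 of 16355 mets-only regions reached (0.214%), and another 25669 bp into the gene stood at percentile 71.0. The remaining 7 ranked between 4.32 and 26.2. The shared region nearest to the start did not go with them, at percentile 40.2 in the primary tumor and 37.9 in mets. The middle 300 bases of the strongest region are shown, chr15:55357562-55357861 in mm10 on the plus strand, with a match to the AP-1 sequence in capitals.
Col14a1 mets-only region: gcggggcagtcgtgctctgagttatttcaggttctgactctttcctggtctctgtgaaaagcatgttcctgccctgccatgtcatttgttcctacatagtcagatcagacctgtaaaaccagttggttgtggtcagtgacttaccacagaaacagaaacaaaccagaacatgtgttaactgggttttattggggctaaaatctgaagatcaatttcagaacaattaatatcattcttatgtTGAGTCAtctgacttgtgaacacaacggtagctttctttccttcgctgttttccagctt

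**Figure D4:**
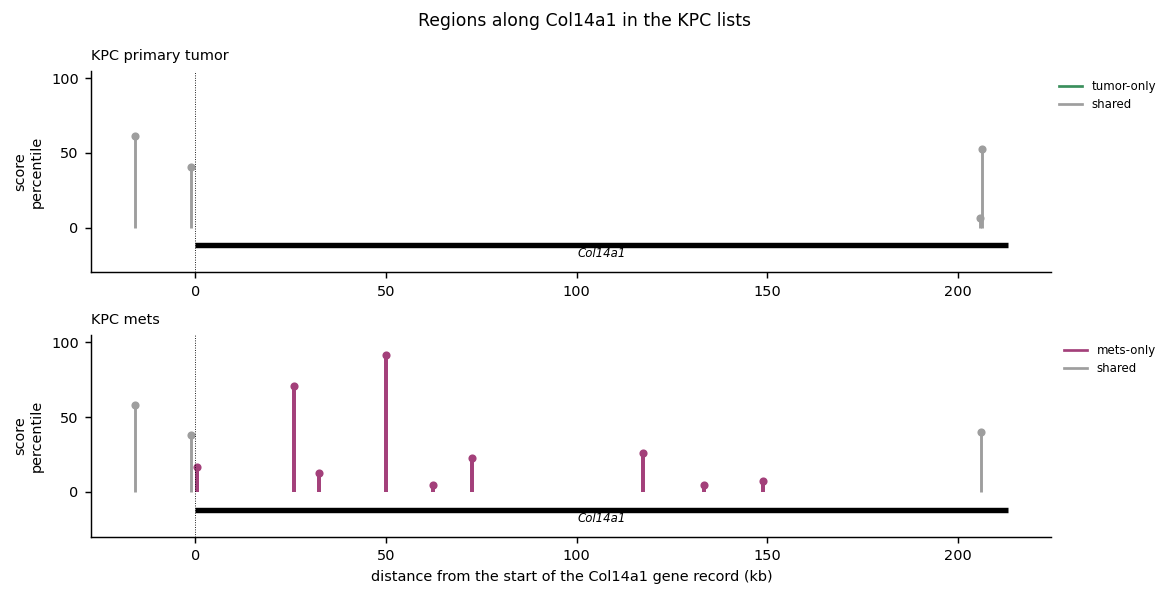
Regions along Col14a1 in the KPC lists, by distance in kb from the start of the gene record and by score percentile within the own list. The 9 coloured lines of the mets list, the highest at percentile 91.5, have no counterpart in the primary tumor list, while both lists share the region just upstream of the start.

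Mets-only regions were found at 31 of the 39 members. The share of all protein-coding genes with one was not computed, and collagen windows held a median of 6 mets regions against 4 for protein-coding genes. After Col14a1 the most were at Col22a1, with 4 of 4 and none listed in the primary tumor, Col4a3 with 4 of 5, Col6a3 with 4 of 12, Col27a1 with 4 of 15 and Col18a1 with 4 of 17. Col12a1, related to Col14a1, had 3 of 5, of which the intronic ones ranked at 60.9 and 59.7. By class, mets-only regions were 23 of 51 at fibril-associated collagens (45.1%, with 9 from Col14a1), 6 of 16 at transmembrane collagens (37.5%), 4 of 18 at beaded filament (22.2%), 6 of 30 at multiplexin (20%), 13 of 70 at fibrillar (18.6%), 9 of 54 at network-forming (16.7%) and 1 of 8 at anchoring fibril collagens (12.5%), and 3 of 19 at COL26A1 and COL28A1 together (15.8%), beside 20.2% of the whole list.

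The fibrillar genes that mark stromal cells showed a mixed picture. COL1A1 had a strong shared promoter region in all lists, at percentile 86.7 in control, 94.1 in HNF4G-KO, 75.8 in the primary tumor and 79.8 in mets. COL1A2, the partner chain of type I collagen, had one at 62.8 in control and 60.7 in HNF4G-KO, but no region anywhere in its mouse window. COL3A1 had 1 shared region in its human window, no promoter region, and no region in mouse. The chains of type I collagen were thus both open in HPAF-II, while in KPC Col1a1 was open alone.

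Among genes of epithelial attachment and the basement membrane, COL7A1 had a promoter region near its gene start at 86.9, 86.5, 85.2 and 90.7 in control, HNF4G-KO, primary tumor and mets, and no region in one list apart from 1 in mets. COL17A1 had a region over its start at 51.2 in control and 47.1 in HNF4G-KO and none in mouse. COL18A1 was open at its gene start in both KPC lists, at 51.6 in the primary tumor and 69.2 in mets. COL28A1, a von Willebrand domain collagen, had the strongest mouse promoter region of any member, at 91.8 in the primary tumor and 98.2 in mets, at an internal start 168502 bp from the gene start. COL12A1 kept a shared region over its start in HPAF-II that ranked at 57.0 in control and 9.66 in HNF4G-KO.

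Shared regions showed how accessibility ranked where both lists of a pair had a region. Percentiles were taken among shared regions, and the change is HNF4G-KO minus control or mets minus primary tumor. The 248 shared collagen regions of HPAF-II had a median change of 2.64 points (95% interval of the median 0.708 to 3.76), and 104 ranked lower in HNF4G-KO (41.9%, 36.0 to 48.2), against a median of 0.676 and 46.6% over all 88632 shared regions. With the percentile taken in the whole list the median was -4.72, beside -4.65 over all shared regions, so its sign rests on the scale. In KPC, the 197 shared collagen regions had a median change of 1.41 (-0.680 to 4.39), and 92 ranked lower in mets (46.7%, 39.9 to 53.7), against 0.988 and 45.4% over all.

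By gene, with at least 3 shared regions, the lowest medians in HPAF-II were those of COL9A1 (-15.9, 3 regions), COL5A2 (-12.5, 4 regions), COL6A3 (-7.29), COL28A1 (-5.36) and COL27A1 (-2.57). All shared regions of COL9A1 and COL5A2 ranked lower in HNF4G-KO, and both genes were also among those whose promoter region was control-only. COL9A1, a cartilage fibril-associated chain, lay at the 0.590th percentile of 14756 ranked protein-coding genes, and COL5A2, a chain that regulates the width of type I fibrils, at the 1.43rd. The highest medians were those of COL23A1 (11.7), COL6A1 (10.2), COL2A1 (8.56), COL22A1 (8.26) and COL17A1 (7.29). COL23A1 was at the 95.6th percentile of genes, with 8 of 11 regions ranked higher, and also had the most KO-only regions, beside as many control-only ones.

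In KPC the lowest medians were those of Col6a2 (-15.6, 3 regions), Col17a1 (-9.53), Col14a1 (-8.41), Col11a2 (-5.02) and Col27a1 (-3.29). Col6a2 rested on 1 region that moved from 54.9 to 6.35 and on its start-site region, which moved from 63.3 to 47.7. Col14a1 thus combined shared regions that mostly ranked lower with the block of mets-only regions. The highest medians were those of Col4a4 (19.2, the 99.1st percentile of 12514 ranked genes), Col9a1 (12.0), Col6a3 (8.80), Col23a1 (6.97) and Col7a1 (4.54). Among the genes named for both pairs, COL23A1 was high in both and COL27A1 low in both. COL9A1 and COL6A3 were low in HPAF-II and high in KPC, and COL17A1 was the reverse. The pairs also compare unlike things in different species.

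**Figure D5:**
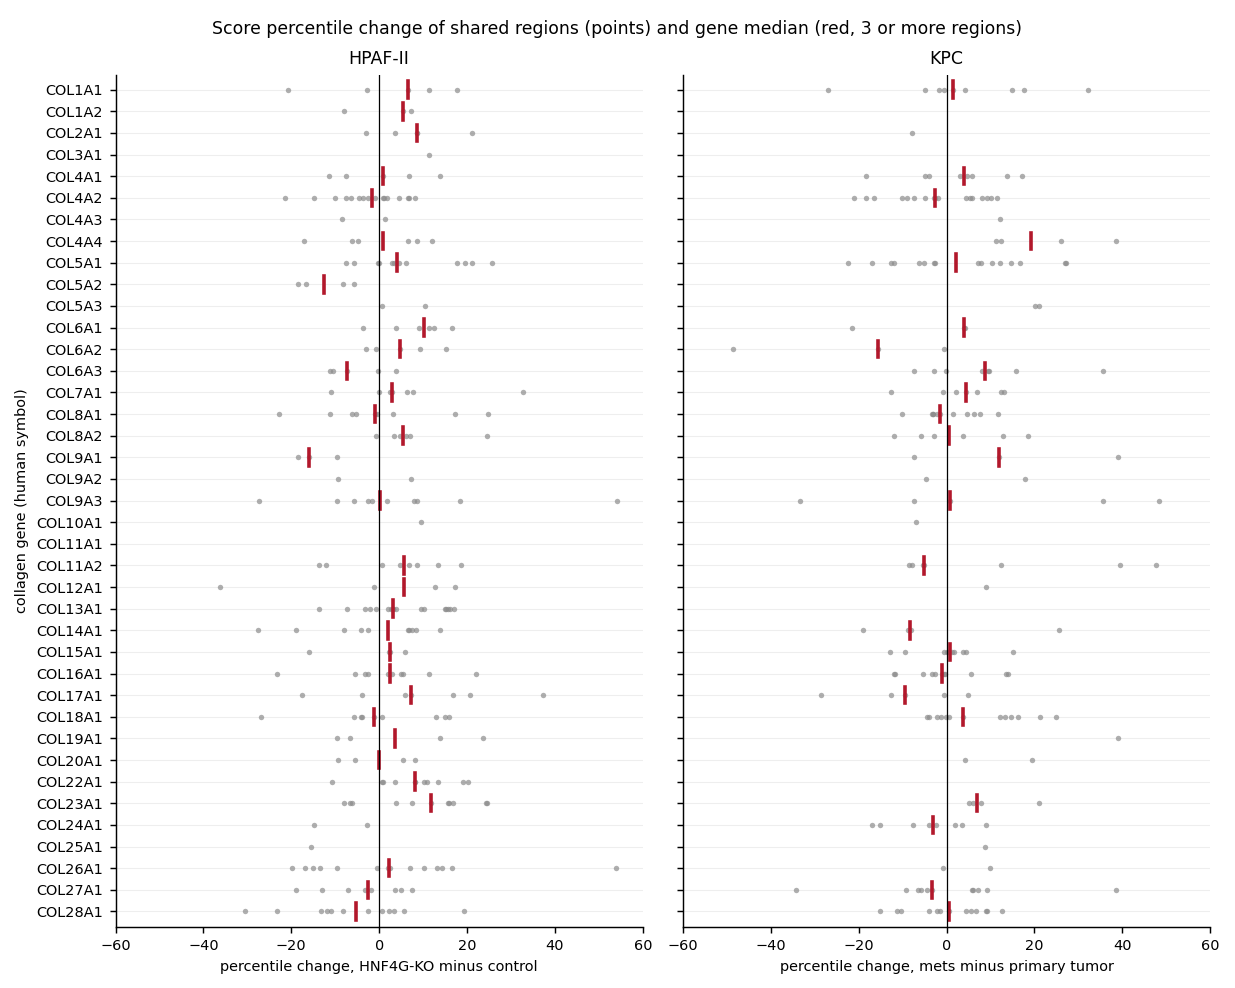
Change in score percentile of shared collagen regions (grey points) by gene, as HNF4G-KO minus control (left) and mets minus primary tumor (right), ranked among shared regions. A Col12a1 region that rose by 74.2 points lies beyond the right edge of the KPC panel and is not drawn. Red bars are the medians of genes with at least 3 shared regions. The bars of COL9A1 and COL5A2 stand at -15.9 and -12.5 on the left and that of Col4a4 at 19.2 on the right.

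Promoter regions were more frequent at the genes that modify and fold collagen chains than at the collagen genes themselves. Genes of chain modification and folding, such as the prolyl hydroxylase subunit P4HA1 and the collagen chaperone SERPINH1, had a promoter region at 16 of 17 genes in control, HNF4G-KO and the primary tumor and at 17 of 17 in mets. Their median percentile was 90.7, 90.2, 76.7 and 81.7 in these lists, beside 85.0, 84.7, 74.3 and 76.9 over all protein-coding genes with one. Of protein-coding genes, 74.8%, 72.8%, 58% and 59.1% had a promoter region in these lists. P4HA3 lacked a promoter region in control, P3H3 in HNF4G-KO and Colgalt2 in the primary tumor. Genes of processing and cross-linking had one at 10, 10, 8 and 9 of 13. LOX, which cross-links fibrils, had one at 67.3 in control and 61.7 in HNF4G-KO and none in either KPC list, and Loxl1 had one in mets alone among the 4 lists, at 48.5. Collagen receptors had one at 6 of 10 in both HPAF-II lists and at 8 of 10 in both KPC lists. DDR1, the collagen receptor of epithelia, was open in all lists, whereas the promoter of DDR2, its mesenchymal relative, was open in the KPC lists alone, at 46.5 in the primary tumor and 52.8 in mets.

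Both strands of every region were searched for short sequences bound by known factor families. They were CAAAGTCCA for HNF4 receptors, TGTTTAC for FOXA factors, TGACTCA or else TGAGTCA for AP-1, AGATAAG for the GATA family, and TGTGGTTT for RUNX factors. HNF4 was found in 1 of 99 control-only collagen regions (1.01%, 0.179 to 5.50), downstream of COL27A1, against 1.43% of all control-only regions, and in 4 of 248 shared ones in control (1.61%), against 1.65%. FOXA was found in 15 of the 248 (6.05%, 3.70 to 9.74), against 10.9% of all shared control regions, and in 9 of 197 shared primary tumor regions (4.57%, 2.42 to 8.45), against 10.1%. Shared collagen regions were more GC-rich, with a median GC content of 54.9% against 49.8% in control and 52.0% against 49.0% in the primary tumor, and the part of this in the FOXA counts was not tested. AP-1 was the most frequent, in 79 of 248 shared control regions (31.9%, against 34.1%) and in 90 of 197 shared primary tumor regions (45.7%, 38.9 to 52.7, against 38.8%). In mets-only collagen regions AP-1 was found in 20 of 65 (30.8%, against 33.3%), 3 of them at Col14a1. GATA was found in 7 of 99 control-only collagen regions (7.07%, 3.47 to 13.9, against 4.01%) and in 13 of 248 shared control ones (5.24%, against 7.50%). RUNX was found in 2 of 99 control-only collagen regions (2.02%, against 3.23%) and in 20 of 248 shared control ones (8.065%, 5.28 to 12.1, against 5.46%). The intervals given for GATA and RUNX hold the background.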

How the data were processed

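ATAC-seq region lists were analysed, 1 deposited BED list for each group of 4 replicates. The authors' score in column 5 has no stated scale and was used as a percentile within its list. The submitters' processing notes name Bowtie2 2.2.6, MACS2 2.1.1.20160309 and DiffBind. How replicates were merged, read shifting and thresholds are not given in the sources used here, and the methods for ATAC-seq mention HPAF-II alone. All region ends lay inside hg38 (HPAF-II) or mm10 (KPC) chromosomes. Coordinates are 1-based.

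Genes and start sites came from GENCODE 44 (human) and GENCODE 21 for mouse (vM21). Windows were gene bodies with 20 kb on each side, promoters lay within 1 kb of a start site, and sharing needed 1 bp. For score changes each region was paired with its longest overlap. Ranks among genes used protein-coding genes with at least 5 regions, or 3 shared regions. Sequences were read from hg38 and from the mm10 assembly. The members, lists and rules were chosen with earlier results of these data known. Named genes were those whose promoter status differed within a pair, the 5 with the most regions in one list, the 5 largest median changes each way, facing pairs, and COL1A1, COL1A2, COL3A1, COL7A1, COL17A1, COL4A1, COL4A2 and COL18A1. COL11A1, COL28A1, COL12A1 in HPAF-II, COL4A5 and COL4A6 were named after their values were seen. No test was run, since no replicate values were held. Overlap and pairing functions were checked on simulated lists. Python 3.11.15, numpy 2.4.6, pandas 2.3.3, scipy 1.17.1 and matplotlib 3.10.9 were used.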

Additional observations from a re-analysis of the deposited data

How the results depend on the processing

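No paired analysis was possible because each group had 1 region list, so replicates could not be left out either. Of 48 recomputed values, 34 stayed within the interval of the reported value, or within 1.5 times it for counts. With lists of equal size the control-only, KO-only, tumor-only and mets-only shares were 14.7%, 14.0%, 14.4% and 17.3%, since the longer list lost its weakest regions. In the upper 50% of each list by score the KO-only share was 5%, and promoter regions were found at 15 of 39 collagen genes in control, 11 in HNF4G-KO, 9 in the primary tumor and 9 in mets. Among protein-coding genes they were found at 13270 of 20033 in control and 12988 of 20033 in HNF4G-KO. In the KPC lists they were found at 10171 of 21938 in the primary tumor and 10600 of 21938 in mets. Where a region had to cover a start site (0 bp) the collagen counts were 14, 10, 11 and 12, and no background was computed. The median change of shared HPAF-II collagen regions reversed to -4.72 with percentiles in the whole list, where all shared regions also had a negative median (-4.65).

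The differences at single starts rest on low-ranked regions, and the depth behind them is unknown. Region lists do not show whether HNF4G was edited, how much of any collagen was made, or which cells of a pool carried a region.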
